A study of Arabidopsis thaliana with 6 samples.

Results

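Transcripts of 8 jasmonate genes were described in whole Arabidopsis thaliana seedlings: LOX2, AOS, AOC1, AOC2, OPR3 and JAR1, which encode enzymes of jasmonate synthesis, and VSP1 and VSP2, which encode vegetative storage proteins that respond to the hormone. They were chosen by name from 27052 gene entries in the RNA-seq files, with earlier results of these libraries known, so their levels and ratios are a description and carry no test. All 8 names were found, none shares its locus interval with another entry, and all 8 reached the minimum level of 5 FPKM used below.

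RNA-seq was done on the Col-0 wild type and the spl7 mutant, in which SPL7, a transcription factor that governs the response to copper deficiency, is disrupted. The allele of the mutant is not given in the labels used here. Seedlings were 7 days old and kept in continuous white light, either on plain MS (Murashige and Skoog medium) or fed 5 µM CuSO4 on top of it, and each of the 4 combinations is 1 library. ChIP-seq used a FLAG antibody on MS-grown seedlings expressing FLAG-tagged SPL7 from the 35S promoter, which is active in most tissues whatever the copper supply, and spl7 seedlings were the negative control; the genotype that carries the transgene is not further described.

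Jasmonate is made from linolenic acid. In the plastid a lipoxygenase such as LOX2 oxygenates the fatty acid, allene oxide synthase (AOS) dehydrates the product, and an allene oxide cyclase (AOC) closes the ring to give OPDA, the precursor that leaves the plastid. In the peroxisome OPR3 reduces OPDA and β-oxidation shortens its side chain; JAR1 then joins jasmonic acid to isoleucine, and the conjugate brings the receptor COI1 and the JAZ repressors together, which frees MYC transcription factors. The pathway is known in seedlings for wounding and herbivore defence, and VSP2 and LOX2 are widely used marker transcripts of the MYC branch.

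Values are FPKM, fragment numbers per kilobase of transcript after scaling for library size, so levels can be set side by side between genes. The libraries summed to between 4383940 and 4694640 FPKM, with medians of 29.3 to 30.3 FPKM, and the read depth behind them is unknown. With 1 library per group, replicate checks and p-values could not be had. SPL7 itself measured 107 and 105 FPKM in the wild-type libraries against 20.2 and 20.7 FPKM in those of spl7, and the copper-repressed superoxide dismutase gene FSD1 measured 5647 FPKM in MS-grown wild type against 14.05, 7.64 and 9.38 FPKM in the others. CSD2, its copper-dependent counterpart, measured 466 FPKM in MS-grown wild type against 4444 to 5164 FPKM elsewhere, so these genes matched the genotype labels and the copper labels of wild type. In spl7 all 3 genes were alike on both media and give no check of the copper label there, on which the copper ratios of spl7 and the pairing of genotypes by medium rest. Ratios are log2 of FPKM + 1 in either library, a scale that understates changes of low genes. A value of exactly 0 can be a failed estimate and is given as listed at 0. Counted as higher or lower was any gene that differed by at least 2-fold and had 5 FPKM or more in either library. Whole seedlings hold many tissues, and fewer cells that express a gene cannot be told apart from less RNA per cell. Green tissue and root markers were both found. The 5 green tissue markers summed to between 144974 and 171039 FPKM and the 9 root markers to between 545 and 640 FPKM. Among the root markers the nitrate transporter gene NRT2.1 was listed at 0 in each library. The 9 seed markers summed to between 207 and 657 FPKM. Of 4 matched flower markers, AP1, AP3 and AG were listed at 0 throughout, and PI stood between 6.77 and 11.6 FPKM.

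LOX2 (AT3G45140; TAIR10 chromosome 3, 16525410 to 16529352) was the most abundant of the 8 transcripts. It measured 1952 FPKM in MS-grown wild type, 1911 FPKM in copper-fed wild type, 2924 FPKM in MS-grown spl7 and 2496 FPKM in copper-fed spl7. Both spl7 libraries lay above both wild-type libraries, with spl7 on MS the highest. The level placed LOX2 above 99.0% to 99.4% of all entries in each library. Among the 4 lipoxygenases of the jasmonate branch, LOX2, LOX3, LOX4 and LOX6, it made up between 94.2% and 96.7% of the summed FPKM.

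AOS (AT5G42650; chromosome 5, 17097595 to 17099395), the allene oxide synthase and a cytochrome P450 of the CYP74 family, measured 661 FPKM in MS-grown wild type and 613 FPKM in copper-fed wild type. In spl7 it measured 1117 FPKM on MS and 840 FPKM with copper. As for LOX2, both spl7 libraries were above both wild-type libraries and spl7 on MS was the highest.

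AOC1 (AT3G25760; chromosome 3, 9403883 to 9405250) and AOC2 (AT3G25770; chromosome 3, 9406873 to 9407955) encode allene oxide cyclases and lie 1.62 kb apart in a tandem array that AOC3 continues. AOC1 measured 461 FPKM in MS-grown wild type, 455 FPKM in copper-fed wild type, 713 FPKM in MS-grown spl7 and 441 FPKM in copper-fed spl7. AOC2 measured 1027, 882, 1675 and 938 FPKM in the same order. For both genes spl7 on MS stood alone at the top, and the other libraries were within a narrower band in which spl7 with copper lay among, or just below, the wild-type values. Only uniquely mapped reads entered the files, and the tandem copies are alike. Reads that fit both copies would be left out, so both levels may be understated and the split between AOC1 and AOC2 is uncertain. Summing the copies would not restore such reads. The ratio of AOC2 over AOC1 was 2.23, 1.94, 2.35 and 2.13 in the same order. The summed FPKM of AOC1 to AOC4 measured 1616 in MS-grown wild type, 1469 in copper-fed wild type, 2524 in MS-grown spl7 and 1519 in copper-fed spl7, so MS-grown spl7 was the top library for the sum as well.

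OPR3 (AT2G06050; chromosome 2, 2359114 to 2362302), the peroxisomal reductase, measured 86.4 FPKM in MS-grown wild type, 88.9 FPKM in copper-fed wild type, 96.3 FPKM in MS-grown spl7 and 90.6 FPKM in copper-fed spl7. Its highest library exceeded its lowest by 1.11-fold, the narrowest range among the 8 genes. JAR1 (AT2G46370; chromosome 2, 19033741 to 19036659), which makes the active conjugate, measured 199, 205, 217 and 241 FPKM in the same order, a range of 1.21-fold. Both genes were above both wild-type libraries in both spl7 libraries, and on MS by smaller margins than the plastid enzymes.

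VSP1 (AT5G24780; chromosome 5, 8507590 to 8508957) and VSP2 (AT5G24770; chromosome 5, 8500476 to 8502224) are close copies 5.36 kb apart, and their reads too are hard to assign. VSP1 measured 30.9 FPKM in MS-grown wild type, 21.7 FPKM in copper-fed wild type, 42.5 FPKM in MS-grown spl7 and 50.6 FPKM in copper-fed spl7. VSP2 measured 34.3, 49.4, 83.01 and 88.8 FPKM in the same order. Both genes were above both wild-type libraries in both spl7 libraries, whereas the wild-type libraries were in opposite order for the 2 copies. Reads that fit both copies would be left out, so both levels and the sum over the pair may be understated. The sum was 65.2 FPKM in MS-grown wild type, 71.1 FPKM in copper-fed wild type, 125 FPKM in MS-grown spl7 and 139 FPKM in copper-fed spl7.

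**Figure D1:**
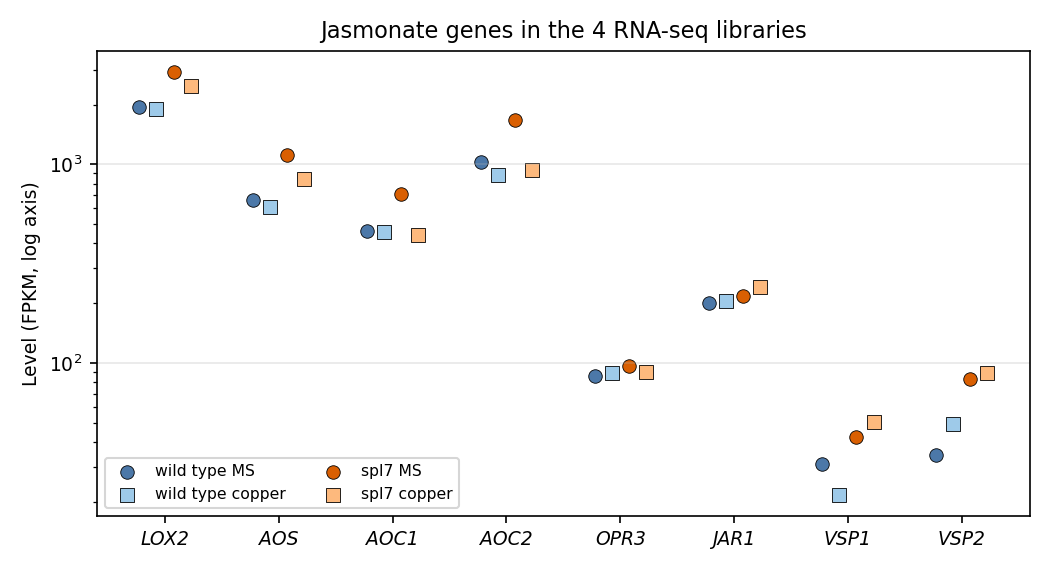
Level (FPKM, log axis) of the 8 jasmonate genes in each of the 4 libraries, 1 point per library, with circles for MS and squares for added copper. LOX2, AOS, AOC1 and AOC2 have spl7 on MS as their highest point (1117 FPKM for AOS), whereas OPR3 and JAR1 vary little and VSP1 and VSP2 are highest in copper-fed spl7.

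The order of the levels was the same in all 4 libraries: LOX2, AOC2, AOS, AOC1, JAR1, OPR3, VSP2 and VSP1, from the highest to the lowest. The ranges over the 4 libraries did not overlap between LOX2 and AOC2, between AOC1 and JAR1, or between JAR1 and OPR3. They overlapped between AOC2 and AOS, AOS and AOC1, OPR3 and VSP2, and VSP2 and VSP1. The transcript of the plastid enzyme AOS exceeded that of the peroxisomal OPR3 by 7.65-fold in MS-grown wild type, 6.90-fold in copper-fed wild type, 11.6-fold in MS-grown spl7 and 9.28-fold in copper-fed spl7.

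The comparison of genotypes on MS set the spl7 library beside the wild-type library where no copper was added. VSP2 was counted as higher in spl7, with a log2 ratio of 1.25 (2.38-fold), and it was the only member counted of 8; over all entries 297 of 18658 (1.59%) were counted in either direction. The 4 plastid enzyme genes followed at log2 ratios of 0.76 for AOS, 0.71 for AOC2, 0.63 for AOC1 and 0.58 for LOX2. VSP1 had a ratio of 0.45, OPR3 one of 0.15 and JAR1 one of 0.12. All 8 ratios were above 0, where 9269 of 18658 entries were, and their median was 0.60, beside a median of 0.00 over all entries that reached 5 FPKM. A high median of jasmonate genes in these libraries was known when the 8 genes were proposed, so this contrast is no independent evidence.

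A limit of 1.5-fold, the looser of the limits tried, counted VSP2, AOS, AOC2 and AOC1 as higher in MS-grown spl7, 4 of 8 members, where 2.36% of all entries were counted as higher. AOC1 was the member just inside that limit and LOX2 the one just outside it. Among entries of at least 100 FPKM in either library, a subset defined after the values were seen, 1.38% were counted as higher at 1.5-fold, and 3 of the 5 members in that subset were.

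With copper in both genotypes, VSP1 was counted as higher in spl7, with a log2 ratio of 1.18 (2.27-fold), and was again the only one of 8, where 1.8% of all entries were counted in either direction. VSP2 had a ratio of 0.83, AOS one of 0.45, LOX2 one of 0.38 and JAR1 one of 0.23. AOC2, OPR3 and AOC1 had ratios of 0.09, 0.03 and -0.04. The member median was 0.31, beside -0.03 over all entries. At 1.5-fold VSP1 and VSP2 were counted, where 2.63% of all entries were higher.

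Set across both media, LOX2, AOS, OPR3, JAR1, VSP1 and VSP2 were above both wild-type libraries in both spl7 libraries, 6 of 8 members, and 0 of 8 showed the reverse. Among all entries of at least 5 FPKM in any library, 21.5% lay in the first class and 26.6% in the reverse class. The media are not replicates, so this counts an order of 4 values and not a reproducible difference.

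Added copper had 0 of 8 members counted at 2-fold in either genotype. The share of all entries counted was 1.33% in wild type and 2.51% in spl7. In wild type the log2 ratios of copper over MS ran from -0.49 for VSP1 to 0.51 for VSP2, with the 6 enzyme genes between -0.22 and 0.04 and a median over members of -0.02. In spl7 they were -0.84 for AOC2, -0.69 for AOC1, -0.41 for AOS, -0.23 for LOX2, -0.09 for OPR3, 0.10 for VSP2, 0.16 for JAR1 and 0.25 for VSP1. At 1.5-fold AOC1 and AOC2 were counted as lower with copper in spl7, 2 of 8, where 1.89% of all entries were counted as lower, and 0.735% of those of at least 100 FPKM. AOC1 and AOC2 were also the 2 members below both MS libraries in both copper libraries, an order that 19.1% of all entries showed, and 0 of 8 showed the reverse, beside 15.3% of all entries.

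The copper ratio of spl7 was then set against that of wild type. The difference, spl7 minus wild type in log2, was -0.67 for AOC1 and -0.62 for AOC2, and 0.74 for VSP1, while the other 5 members lay between -0.42 for VSP2 and 0.12 for JAR1. A difference of at least 0.5 in size, a limit chosen after the values were seen, was reached by those 3 members, and over all entries by 3.92% on the lower side and 4.96% on the higher side. These differences rest on 1 library in each group and were not tested. The comparisons also share libraries: the library of spl7 on MS enters both the genotype ratio on MS and the copper ratio in spl7, so the high AOC1 and AOC2 values of that library stand in both.

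**Figure D2:**
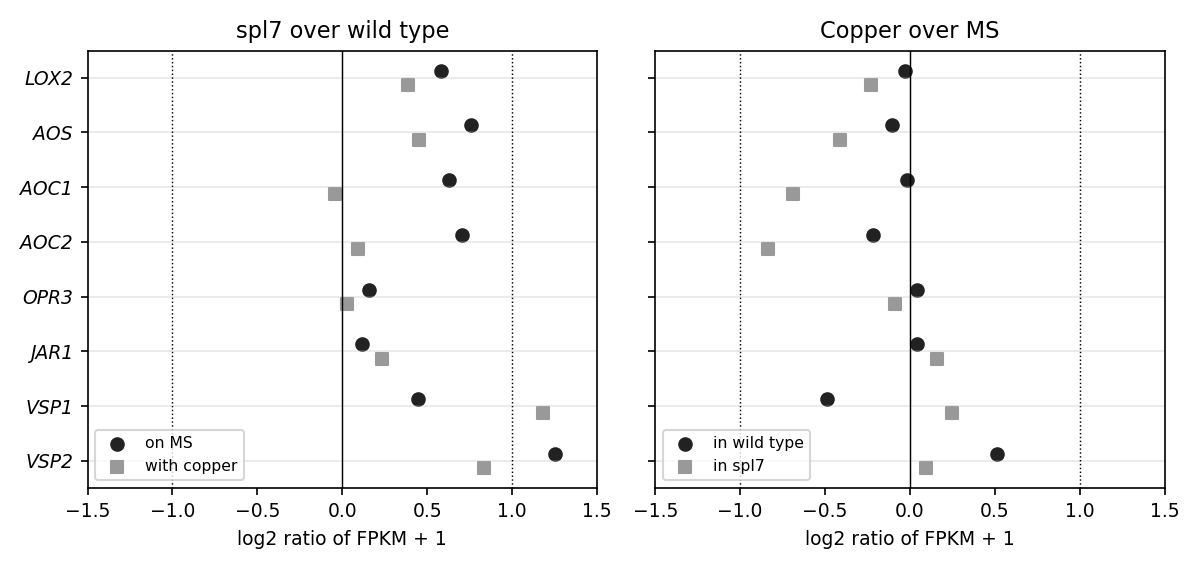
Log2 ratios of FPKM + 1 for the 8 genes, spl7 over wild type on the left (circles on MS, squares with copper) and copper over MS on the right (circles in wild type, squares in spl7), with dotted lines at 2-fold. VSP2 on MS (1.25) and VSP1 with copper (1.18) are past the line, and AOC1 and AOC2 separate most by genotype among the enzymes, at -0.69 and -0.84 in spl7.

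The rest of the pathway was taken from lists of 69 genes in 9 groups. On MS 56 of them reached 5 FPKM in either library, with a median log2 ratio of 0.06. Of these, 0 were counted as higher in spl7 and 1 as lower, where 101 and 196 of 18658 entries were. The lower one was LOX4 (AT1G72520), a minor lipoxygenase of the pathway, with 13.4 FPKM for MS-grown wild type and 5.83 FPKM for MS-grown spl7; the copper-fed values were 13.9 and 11.7 FPKM. With copper 57 reached that level, with a median of 0.04. Of these, 0 were higher and 1 was lower, where 186 and 153 of 18805 entries were. That one was JAZ7, a repressor of the pathway, at 6.25 FPKM in wild type and listed at 0 in spl7. For added copper 0 were counted, of 57 in wild type and of 56 in spl7, where 1.33% and 2.51% of all entries were.

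Among the plastid isoforms outside the 8 genes, LOX4 thus went the other way from LOX2 on MS, with a log2 ratio of -1.08. LOX3, LOX6, AOC3 and AOC4 had log2 ratios on MS of 0.01, -0.05, -0.08 and 0.12, and AOC3, the third gene of the tandem array, stood between 22.1 and 26.5 FPKM in the 4 libraries. The desaturases that supply linolenic acid had ratios between -0.14 and 0.05 on MS, and the lipase genes DAD1 and DGL were listed at 0 in all libraries. The 7 peroxisomal genes, which cover the OPDA importer PXA1, the ligase OPCL1 and β-oxidation, had ratios on MS between 0.01 and 0.24, with a median of 0.07, close to those of OPR3 and JAR1.

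Genes of perception and of the response were also followed. The 10 genes listed for perception and transcription control, COI1 and MYC2 among them, had a median log2 ratio of 0.03 on MS and 0.09 with copper, and 0 were counted. In this list COI1, TPL and JAM3 share their locus intervals with other entries. MYC2 measured 136 FPKM in MS-grown wild type, 142 FPKM in copper-fed wild type, 157 FPKM in MS-grown spl7 and 151 FPKM in copper-fed spl7. Of 12 JAZ genes, many of which are themselves induced by jasmonate, 10 reached 5 FPKM on MS, with a median of 0.10, and 0 were counted. JAZ1, named after its values were seen, measured 78.1, 69.7, 100.3 and 102.9 FPKM in the same order. JAZ10, a sensitive marker of the hormone response, measured 19.7, 18.1, 19.0 and 17.4 FPKM.

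The 6 other response genes of the MYC branch had 3 members at 5 FPKM or more on MS, CORI3, CLH1 and JR1, at log2 ratios of -0.01, 0.06 and -0.01. TAT3, THI2.1 and NATA1 stayed under 5 FPKM in every library. On the branch governed by ERF factors, PDF1.2 and its copies PDF1.2b and PDF1.2c and the factor ERF1 were listed at 0 in all libraries, and HEL, CHIB and ORA59 had ratios of -0.22, -0.40 and 0.23. Turnover genes, several of which are induced by jasmonate, had a median of 0.36 on MS and 0.02 with copper over the 9 that reached 5 FPKM, and 0 were counted in either. JOX2, a jasmonate oxidase named after its values were seen, had a ratio of 0.66 on either medium, at 77.8 FPKM in MS-grown wild type, 96.8 FPKM in copper-fed wild type, 123 FPKM in MS-grown spl7 and 153 FPKM in copper-fed spl7.

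**Figure D3:**
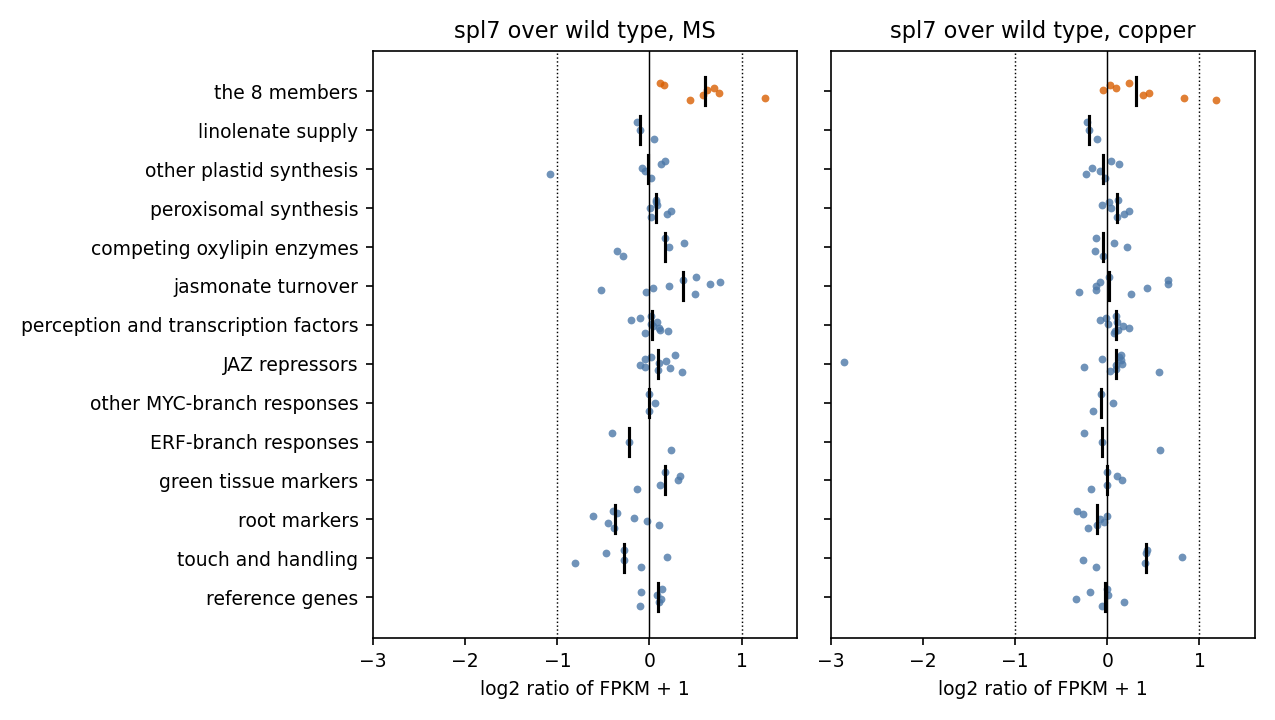
Log2 ratios of spl7 over wild type on MS (left) and with copper (right), 1 point per gene of at least 5 FPKM in either library, for the 8 members (orange) and the other lists (blue), with a black bar at each list's median and dotted lines at 2-fold. The members' median is 0.60 on MS and 0.31 with copper, and LOX4 (-1.08, MS) and JAZ7 (-2.86, copper) are the pathway points furthest to the left.

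Other transcripts moved beside the members. The green tissue markers, which like LOX2, AOS and AOC2 belong to plastid functions, had a median log2 ratio of 0.17 for spl7 on MS, 0.00 for spl7 with copper and -0.28 for copper in spl7, and their sums were 163910 FPKM in MS-grown wild type, 150674 FPKM in copper-fed wild type, 171039 FPKM in MS-grown spl7 and 144974 FPKM in copper-fed spl7. The root markers had medians of -0.37 for spl7 on MS and -0.11 with copper. Touch and handling genes, which harvest can raise, had a median of -0.28 for spl7 on MS, 0.42 for spl7 with copper and 0.90 for copper in spl7, where TCH3, WRKY40 and ZAT12 were counted as higher; WRKY40 and WRKY33 share their locus intervals with other entries. Their sums were 1089, 1067, 840 and 1152 FPKM in the same order as above, with TCH3, WRKY33 and ZAT12 lowest in MS-grown spl7, TCH2 and TCH4 lowest in copper-fed spl7 and WRKY40 lowest in MS-grown wild type. Seed markers summed to 316, 657, 207 and 548 FPKM. Of the 8 that reached 5 FPKM on MS, 2 were lower in spl7 (SESA3 and CRU2), where 196 of 18658 entries were. With copper 6 of 9 were lower in spl7 (EM1, SESA1, SESA2, SESA3, SESA4 and CRU2), where 153 of 18805 entries were. Of these, SESA2, SESA4 and CRU2 were listed at 0 in copper-fed spl7, as was CRU2 in MS-grown spl7. The wild-type values beside those zeros were near the minimum level for SESA4 with copper (5.17 FPKM) and CRU2 on MS (5.51 FPKM). With copper EM1, SESA1, SESA2, SESA4 and CRU3 were counted as higher in wild type, and EM6, CRA1 and CRU3 in spl7. SESA4 was listed at 0 in MS-grown wild type. Over all entries 178 of 18742 were counted as higher with copper in wild type and 372 of 18707 in spl7. The part of these lists in the members' ratios was not tested. The 6 reference genes had log2 ratios between -0.37 and 0.18 over the 4 comparisons.

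Binding of FLAG-SPL7 is a readout that did not enter the choice of the genes. The deposited list holds 1535 peaks, and a peak was assigned to a gene by an overlap with its locus or the 1 kb on either side. Peaks lay on 2 of the 8 loci, LOX2 and AOS, where 4.21% of all nuclear entries had a peak on the locus and 6.7% had one within 1 kb. The LOX2 peak (chromosome 3, 16526191 to 16526892) lay wholly inside the locus, with its middle 28.7% of the way from the lower coordinate, and had an authors' score of 563, rank 260 in the list. The AOS peak (chromosome 5, 17098261 to 17098592) also lay inside the locus, with its middle at 46.2%, a score of 199 and rank 969. The files give no strand, so position along the transcript is not stated. The nearest peak was 28.1 kb from OPR3, 53.8 kb from JAR1, 56.7 kb from VSP2, 63.8 kb from VSP1, 270.9 kb from AOC1 and 273.9 kb from AOC2.

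The share of entries with a peak on the locus differed with transcript level. It was 1.71% among 10019 entries with a mean of 10 to 100 FPKM over the 4 libraries, the class of OPR3, VSP1 and VSP2, and 5.22% among 5646 entries of 100 to 500 FPKM, the class of JAR1. It was 27.6% among 1164 entries of 500 to 2000 FPKM, which hold AOS, AOC1 and AOC2, and 91.5% among 258 entries above 2000 FPKM, which hold LOX2. Of the 258 entries in the class of LOX2, 236 had a peak on the locus. The part of transcript level in the peaks on LOX2 and AOS was not tested further, and the control immunoprecipitation from spl7 was not analysed here. All 5 green tissue markers and the actin gene ACT2 also had a peak on the locus. So did FSD1, CSD2 and SPL7, and the peak on SPL7 had a score of 1104 and rank 124, above those of LOX2 and AOS. The FLAG-SPL7 plants also carry SPL7 sequence in the transgene, and its part in this peak was not tested. By its mean over the 4 libraries SPL7 falls in the class of 10 to 100 FPKM. It measured 107 and 105 FPKM in the wild-type libraries and 20.2 and 20.7 FPKM in those of spl7. Among the other pathway genes, peaks lay on OPR1 and TPL and within 1 kb of OPR2, JOX4 and JR1. TPL shares its locus interval with another entry, so its peak cannot be placed on TPL alone. The peak near OPR2 is the one on OPR1, and those near JOX4 and JR1 each lay on 1 other entry.

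**Figure D4:**
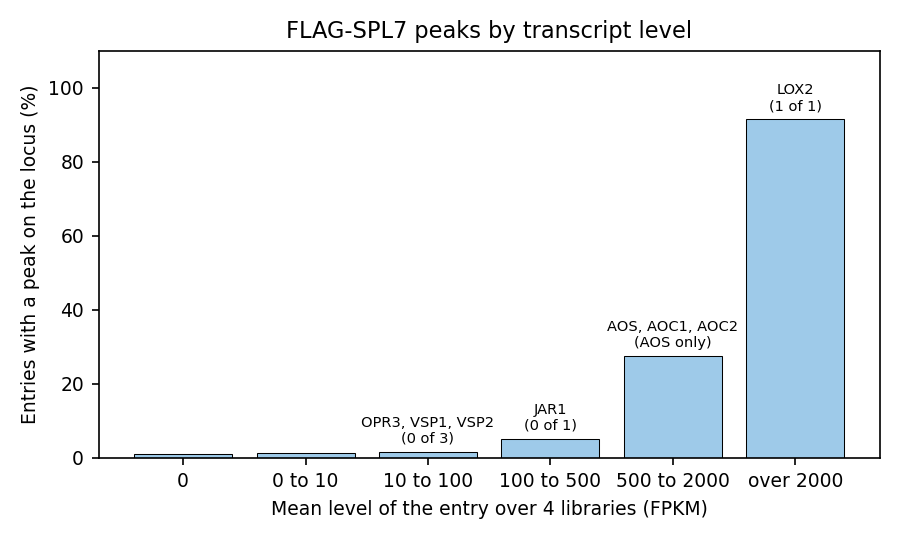
Percent of nuclear gene entries with a FLAG-SPL7 peak on the locus (bars), by mean FPKM over the 4 libraries, with the jasmonate genes of each class named above the bar and how many of them have such a peak. The share is 91.5% in the class of LOX2 and 27.6% in that of AOS, AOC1 and AOC2.

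The transcripts whose pattern over the 4 libraries came closest were found by Euclidean distance between log2 values centred on their mean, among 15083 entries of at least 5 FPKM in each library outside the lists. Closest to VSP2 were PYD4, an aminotransferase-like gene of pyrimidine catabolism, at 310, 390, 672 and 673 FPKM (distance 0.17), RL5 (distance 0.23) and AT1G53540 (distance 0.33). Closest to VSP1 were AT4G22470 (distance 0.13), AT1G69890 (distance 0.14) and AT2G36770 (distance 0.19), all at lower levels than VSP1. Closest to the mean of the 8 members were AT3G14067, AT2G28870 and MLP34, at distances between 0.033 and 0.037. With 4 points per gene such likeness is a description of these libraries, and the small distances from the mean profile come with a search over many entries.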

How the data were processed

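The data were 4 RNA-seq libraries and a list of ChIP-seq peaks, with groups taken from genotype and medium in the labels. To make the deposited FPKM, the authors used TopHat and Cufflinks on TAIR10 with uniquely mapped reads, after CASAVA 1.8.2, per the submitters' processing notes and the series description; other versions are not given there. No stranded kit is named, so antisense overlaps could not be resolved. The deposited peaks carry MACS names and a score from the authors, whose reads were mapped with Bowtie, per the same notes; the meaning of the score is not given there.

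The members and the gene lists were chosen with earlier results of these data known. Lists held 120 genes, of which 119 were matched by symbol, locus code or synonym through a RefSeq table of TAIR10.1, used for names and to check that loci overlap; SEP3 was not matched. Coordinates are 1-based, from the authors' files. A search for whole-read steps among low values failed: the commonest log2 ratio to wild type on MS held between 3.96% and 6.46% of low entries, so no reads were recovered and no counting interval is given. Named are the 8 members, list genes counted in a comparison, the 3 entries nearest in pattern to VSP1, VSP2 and the member mean, and SPL7, FSD1 and CSD2. Other names were chosen after their values were seen. No test was run, since each group is 1 library. Motifs in promoters were planned and not analysed here. Counting and overlap steps were tested on simulated data. Python 3.11, pandas 2.3.3 and NumPy 2.4.6 were used. Pseudocounts, minimum levels, a 1.5-fold limit, rescaled libraries and peak flanks were varied.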

Additional observations from a re-analysis of the deposited data

How the results depend on the processing

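Pseudocounts of 0.1 and 5 FPKM, no minimum level, a minimum of 20 FPKM and libraries rescaled by their median ratio left the count of members at 1 on MS between genotypes, 1 with copper between genotypes and 0 for copper in either genotype, and none of 32 member ratios changed sign under the pseudocounts or the rescaling. A limit of 1.5-fold counted 4 members for spl7 on MS, 2 for spl7 with copper and 2 for copper in spl7. At 1.5-fold among genes of 100 FPKM, an alternative chosen after seeing the data, it counted 3, 0 and 2, because VSP1 and VSP2 are below that level. Flanks of 500 bp and 3 kb left 2 members with a peak. Minimum levels and fold limits have no bearing on the difference between copper ratios and were not run for it. No paired analysis was possible because each group has 1 library and the labels carry no replicate numbers. With unknown depth and no replicates, no error could be put on any ratio.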

Other observations

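Of 5 related enzymes outside the main route, LOX1, LOX5, HPL1, OPR1 and OPR2, 0 were counted at 2-fold in any of the 4 comparisons. OPR1, a cytosolic relative of OPR3, was the most abundant of them. It measured 1561 FPKM in MS-grown wild type, 2307 FPKM in copper-fed wild type, 2032 FPKM in MS-grown spl7 and 2426 FPKM in copper-fed spl7. OPR1 and its neighbour OPR2 are close copies, and OPR2 shares its locus interval with another entry. OPR1 was lowest in MS-grown wild type, unlike LOX2 and AOS, which were lowest in copper-fed wild type. OPR1 was picked after its values were seen.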
